A study of Mus musculus with 28 samples.

Results

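A pair of small interfering RNAs against the same mRNA, Keap1, was set side by side in mouse bone marrow-derived macrophages: 4 arrays of cells given siKeap1-1 against 4 arrays of cells given siKeap1-2, 8 of the 28 arrays in the series. The arrays were taken by their labelled treatment, and same-numbered arrays were treated as pairs. All of these cells were Nrf2+/+ on the strain background C57BL/6 J and came from mice aged 12 weeks, as did the 4 arrays of cells given a control siRNA (siControl), which served as the common reference. Further arrays were used only as a separate readout of Nrf2. They were Nrf2+/+ and Nrf2-/- macrophages of the same strain and age in the solvent DMSO at 0.2% for 4 h (4 arrays each). Others were Nrf2+/+ macrophages given the Keap1-binding compound RA839 for 4 h, also with DMSO at 0.2% (4 arrays). Nrf2-/- macrophages given RA839 in the same way (4 arrays) entered only the estimate of spread. The series describes the 4 arrays of a group as biological replicates. The labels do not say whether a number marks an animal or a day, or whether marrow was pooled. The sources used here state no siRNA sequence or dose, no time after transfection and no dose of RA839, so no siRNA sequence is shown and none was searched against transcripts.

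Keap1 is the adaptor that brings the transcription factor Nrf2 (gene Nfe2l2) to a ubiquitin ligase for destruction. When Keap1 is lost, Nrf2 builds up, pairs with small Maf proteins and binds antioxidant response elements, which switch on genes of glutathione synthesis, thioredoxin recycling, NADPH supply and detoxification. An siRNA can also lower mRNAs other than its target, mainly through pairing of its seed bases with their 3′ untranslated regions. Use of more than one siRNA against a target is the usual way to see which changes go with the target and which go with the molecule.

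Values are RMA log2 intensities, and a difference of 1 is a change of 2-fold. Differences are siKeap1-1 minus siKeap1-2 ± standard error, from a linear model (limma) over the 12 siRNA arrays with the replicate number as a block and n = 4 arrays per group. A gene passed the threshold when its Benjamini-Hochberg adjusted p over 18193 genes was under 0.05. Array medians lay between 5.91 and 5.96 over all probe sets and between 7.53 and 7.74 over the probe sets used for genes. The ratio of 3′ to 5′ signal of Gapdh, a sign of RNA integrity, was 0.73 to 0.88 (log2) in the siKeap1-1 arrays and 0.74 to 0.78 in the siKeap1-2 arrays. The same ratio also overlapped between the siRNAs for 18S RNA (0.71 to 0.93 and 0.89 to 1.08), the transferrin receptor (3.60 to 4.09 and 4.04 to 4.42), actin (1.37 to 1.65 and 1.47 to 1.62) and pyruvate carboxylase (2.32 to 2.94 and 2.46 to 2.68). For pyruvate carboxylase both lay above siControl (0.71 to 1.24). In every same-numbered pair, siKeap1-2 lay above siKeap1-1 for 18S RNA and the transferrin receptor. The pairs went both ways for Gapdh, actin and pyruvate carboxylase. The part of RNA integrity in the gene differences was not tested. The 3 arrays numbered 4 stood apart together: their deviations from the group means correlated at 0.64 to 0.66 across genes, against 0.12 to 0.43 for the other same-numbered pairs. Macrophage markers averaged 12.31 to 12.56 with siKeap1-1 and 12.25 to 12.42 with siKeap1-2, both below siControl at 12.72 to 12.90. All 8 T and NK cell markers and all 6 erythroid markers measured lay below the median over genes on every siRNA array.

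Both siRNAs lowered Keap1, and the direct difference between them did not pass the threshold. Keap1 read 10.94, 11.12, 11.12 and 11.16 in the siControl arrays numbered 1 to 4, 8.93, 9.13, 9.11 and 9.08 with siKeap1-1, and 9.25, 9.15, 9.15 and 9.47 with siKeap1-2. The siRNA groups lay apart from siControl by 4.07-fold and 3.56-fold, and the siKeap1-1 arrays lay just below the siKeap1-2 arrays with no overlap. The direct difference was −0.20 ± 0.07 (95% interval −0.35 to −0.04, adjusted p = 0.0991). It was −0.13 without the arrays numbered 4, and it passed when only genes above the median mean level were tested (adjusted p = 0.0377). Nfe2l2, which encodes Nrf2, read 12.60 to 12.73 with siKeap1-1, 12.77 to 12.86 with siKeap1-2 and 13.05 to 13.23 with siControl. Its arrays did not overlap either, with a difference of −0.16 ± 0.05 (interval −0.26 to −0.05, adjusted p = 0.0528). It passed among genes above the median mean level (adjusted p = 0.0127) and with a trended robust prior (adjusted p = 0.00594), while a second Nfe2l2 probe set differed by 0.11.

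Most of the standard Nrf2 targets did not pass the threshold between the siRNAs. Nqo1, the quinone reductase used as the standard readout of Nrf2, read 12.80, 12.87, 12.83 and 13.33 with siKeap1-1 and 12.98, 12.80, 12.75 and 12.90 with siKeap1-2, against 11.43 to 11.88 with siControl. The groups overlapped, the difference was 0.10 ± 0.09 (interval −0.11 to 0.31, adjusted p = 0.547), and without the arrays numbered 4 it was −0.01. Gclc and Gclm, the catalytic and modifier subunits of the enzyme that starts glutathione synthesis, differed by 0.12 ± 0.08 (interval −0.06 to 0.29) and 0.08 ± 0.06 (−0.04 to 0.21). Txnrd1, the cytosolic thioredoxin reductase, differed by 0.02 ± 0.04 (−0.06 to 0.10). Hmox1, the haem-degrading enzyme, lay at 13.40 to 13.71 with siKeap1-1 and 13.19 to 13.38 with siKeap1-2, without overlap (0.22 ± 0.08, interval 0.03 to 0.41, adjusted p = 0.116). Slc7a11, the cystine importer, differed by −0.18 ± 0.06 (interval −0.31 to −0.04, adjusted p = 0.0812) on the probe set used. Among genes above the median mean level and with a trended robust prior, Hmox1 (adjusted p = 0.049 and 0.0312) and Slc7a11 (adjusted p = 0.0268 and 0.0216) passed, Slc7a11 also with array weights (adjusted p = 0.0441). A second, dimmer Slc7a11 probe set went the other way (0.76 ± 0.07, adjusted p over all probe sets 0.000575), and the mean over both was 0.29.

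Srxn1 was the exception. Srxn1 encodes sulfiredoxin, which repairs over-oxidised peroxiredoxins and is a classic Nrf2 target. It read 13.31, 13.35, 13.44 and 13.52 with siControl, 13.49, 13.48, 13.47 and 13.34 with siKeap1-1, and 13.98, 14.01, 13.99 and 13.85 with siKeap1-2. The siKeap1-2 arrays lay above all others, and the siKeap1-1 arrays lay within the siControl range. The difference was −0.51 ± 0.07 (adjusted p = 0.00145), made of 0.04 against siControl with siKeap1-1 (adjusted p = 0.740) and 0.55 with siKeap1-2 (adjusted p = 0.000602). In the other arrays Srxn1 was 0.73 higher with RA839 than with DMSO (adjusted p = 0.00263), and Nrf2-/- cells lay at −2.84 from Nrf2+/+ cells (adjusted p = 9.3e-11). All 4 Srxn1 probe sets were lower with siKeap1-1 than with siKeap1-2, by −0.49 to −1.11.

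**Figure D1:**
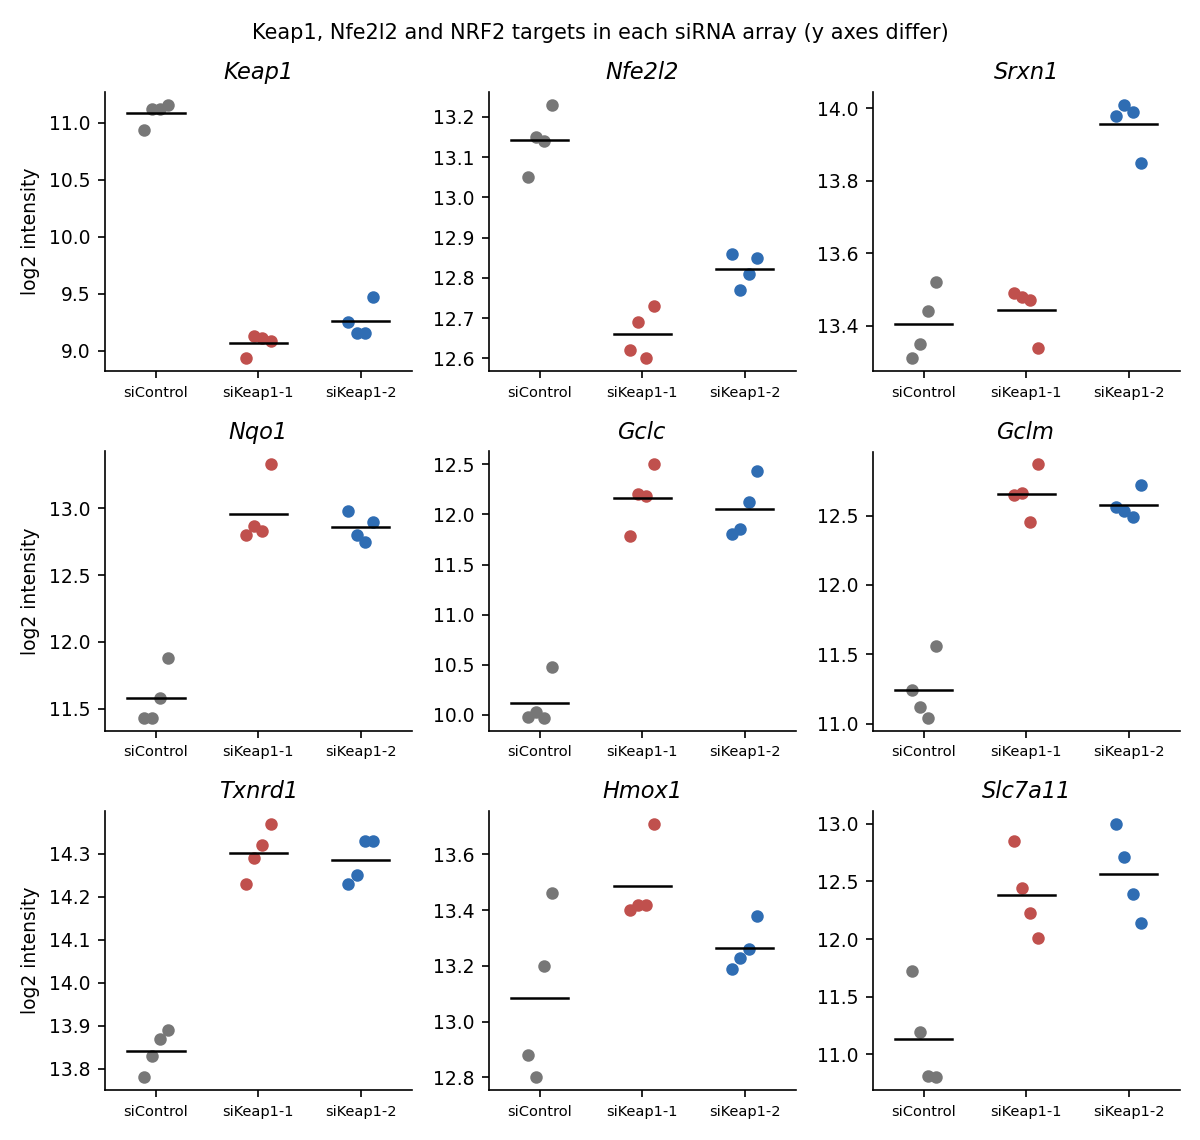
RMA log2 intensity of Keap1, Nfe2l2 and 7 Nrf2 targets in each siRNA array (4 points per group, in replicate order from left to right; black lines are means; each panel has its own y axis that does not start at 0). Keap1 falls from about 11.09 to 9.06 and 9.26, and Srxn1 is the panel in which siKeap1-1 stays near siControl (13.45 against 13.41) while siKeap1-2 reaches 13.96.

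Of the 39 genes on a list of core Nrf2 targets, 35 were measured. Of these, 1 was higher and 2 were lower with siKeap1-1, which is 8.6%, against 14.6% of all genes tested past the threshold in either direction (7.64% higher and 7.01% lower). Their median difference was −0.01, and that over all genes was 0.0. Against siControl, 28 of the 35 were higher with siKeap1-1 and 27 with siKeap1-2, and 0 were lower with either (also 0 at an unadjusted limma p under 0.05), where 13.6% and 11.4% of all genes were higher. The median changes were 0.53 and 0.55. These comparisons share the 4 siControl arrays, so their likeness is not independent. Beside Srxn1, Taldo1, a transaldolase of the pentose phosphate pathway, was lower with siKeap1-1 (−0.27 ± 0.04, adjusted p = 0.00378), at 12.97 to 13.01 against 13.20 to 13.29. It lay above siControl with both. Trim16, a ubiquitin ligase, was the member that was higher (0.44 ± 0.09, adjusted p = 0.0147). Its arrays overlapped, and the call was lost without the replicate block (adjusted p = 0.443) and without the arrays numbered 4 (adjusted p = 0.0828).

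The antioxidant response element was also looked for in the promoters of these genes, as RefSeq gives them (build GRCm38.p6, 250 bases before to 50 after the start of a gene). The letters searched were TGACNNNGC on both strands, the core of the element, and they overlap the TGAC of AP-1 and Maf sites. Of the 9 genes of the on-target check 7 had an entry, all but Gclc and Hmox1. Txnrd1 had several, and those without a match are not shown. Matches stood in a promoter of 4 of the 7 genes. They are shown in capitals with 10 bases on each side, because they set the gene that separated the siRNAs beside 3 that did not:
Srxn1: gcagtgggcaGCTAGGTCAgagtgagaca
Gclm: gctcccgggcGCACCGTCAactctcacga
Txnrd1: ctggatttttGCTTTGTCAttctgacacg
Nfe2l2: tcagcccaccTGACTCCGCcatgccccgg
The stretches lie at chr2:152105542-152105570 (plus strand) for Srxn1, chr3:122245413-122245441 (plus strand) for Gclm, chr10:82859104-82859132 (plus strand) for Txnrd1 and chr2:75704885-75704913 (minus strand) for Nfe2l2. The match begins 28 bases after the start in Srxn1 and 134, 92 and 240 bases before it in the other 3. Of the 18193 genes tested, 14367 had an entry, and a match stood in a promoter of 2317 of these (16.1%). It stood in 10 of 29 core Nrf2 targets (34.5%), in 16.3% of the genes higher with siKeap1-1 and in 17.6% of those lower with it. Of the 12 leading genes in each direction described next, 10 and 10 had an entry. The match was in 1 of the former (Srpx2) and 4 of the latter (Smagp, Prkar2a, Slc9a3r2 and Pcgf3).

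Across the genes tested, Nrf2 targets included, the siRNAs differed at many by small amounts. Of 18193 genes, 2665 passed the threshold, with 1390 higher and 1275 lower with siKeap1-1, and their median absolute difference was 0.32. Only 348 differed by at least 1.5-fold (202 higher, 146 lower) and 51 by at least 2-fold (32 higher, 19 lower). The 4 arrays of one siRNA lay wholly above or below the 4 of the other at 2399 genes (13.2%), and 1696 of these were past the threshold. Without the replicate block 1356 genes passed (650 higher, 706 lower), and without the arrays numbered 4 it was 1283. Leaving out any one array gave 1730 to 2754. Among probe sets with no gene name, 300 of 9160 (3.28%) passed a threshold over all probe sets, of which 8.38% passed.

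**Figure D2:**
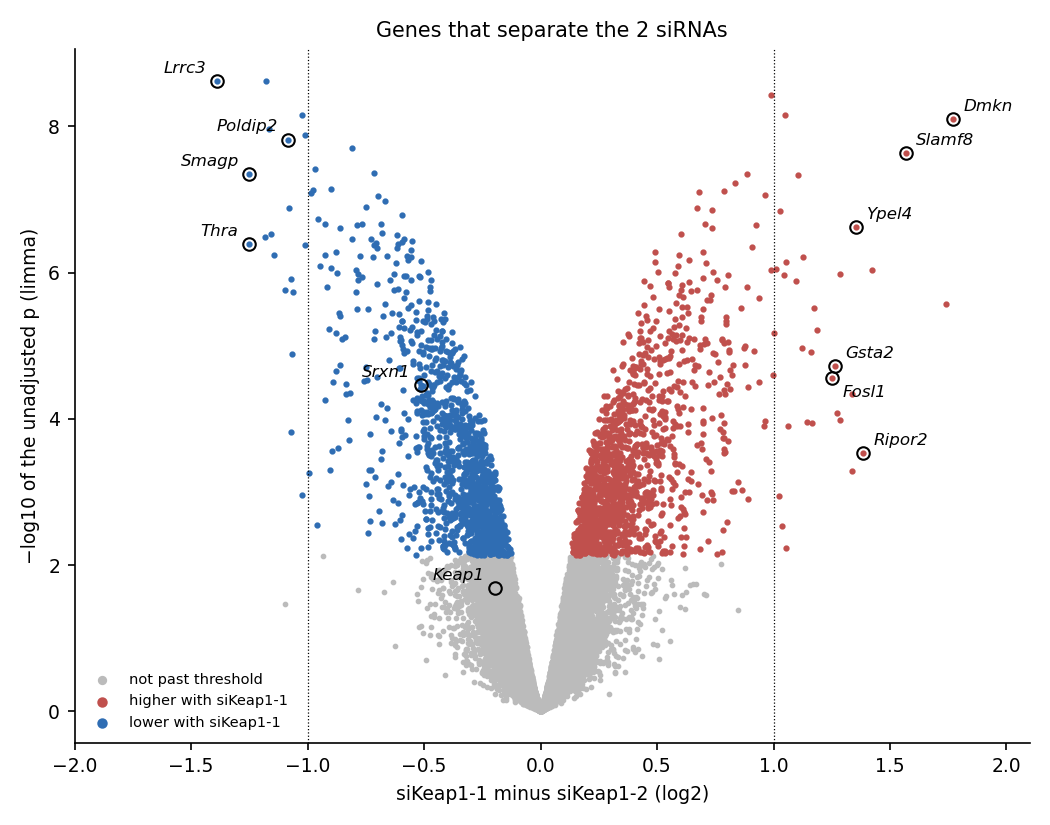
Difference between the siRNAs (x axis, log2) against −log10 of the unadjusted limma p (y axis) for 18193 genes; coloured points passed the threshold and dotted lines mark 2-fold. Keap1 (−0.20) lies below the threshold, while Dmkn (1.77) and Lrrc3 (−1.39) lie at the right and left edges.

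The 12 leading genes lower with siKeap1-1 all lay below siControl with that siRNA, and 8 of them did not pass the threshold against siControl with siKeap1-2. They were chosen among genes at which the 4 arrays of the siRNAs did not overlap, and each call was kept in every alternative run. In a mixture of cells such as these cultures, less RNA per cell and fewer cells that carry it cannot be told apart. Lrrc3, a leucine-rich repeat membrane protein, read 9.63, 9.80, 9.96 and 8.60 with siControl, 8.17, 8.31, 8.61 and 7.36 with siKeap1-1, and 9.55, 9.86, 9.92 and 8.68 with siKeap1-2. Array 4 of each group was the lowest, and each siKeap1-1 array lay more than 1 unit below both same-numbered arrays. The difference was −1.39 ± 0.06 (2.62-fold, adjusted p = 2.18e-05), and siKeap1-2 lay 0.01 from siControl (adjusted p = 0.954). A second, dim Lrrc3 probe set differed by 0.01, so the mean over both was −0.69.

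Poldip2, a partner of DNA polymerase delta, gave a like picture. It read 10.79 to 10.92 with siControl, 9.78 to 9.88 with siKeap1-1 and 10.80 to 10.99 with siKeap1-2. The siKeap1-1 arrays lay close together and wholly below the rest (−1.08 ± 0.05, adjusted p = 3.07e-05). Its other probe set, at 9.68, 9.66 and 9.78 in the 3 groups, differed by −0.11 (adjusted p over all probe sets 0.485). The sources used here do not say where on the transcript either probe set lies.

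Thra, Epas1 and Prkar2a encode regulators of transcription or signalling. Thra, the thyroid hormone receptor alpha, read 9.72 to 10.09 with siControl, 8.39 to 9.01 with siKeap1-1 and 9.82 to 10.24 with siKeap1-2 (−1.25 ± 0.09, adjusted p = 0.000137). Both other Thra probe sets differed by −0.53. Epas1, which encodes the hypoxia-inducible factor HIF-2 alpha, read 9.92, 9.63, 9.48 and 9.31 with siKeap1-1 against 11.06, 10.71, 10.70 and 10.52 with siKeap1-2. The pairs differed by similar amounts (−1.16 ± 0.06, adjusted p = 2.87e-05), and siKeap1-2 lay at −0.12 from siControl (adjusted p = 0.179). Its second probe set differed by −0.51. Prkar2a, a regulatory subunit of protein kinase A, read 10.65 to 11.14 with siKeap1-1 and 12.06 to 12.25 with siKeap1-2 (−1.18 ± 0.08, adjusted p = 0.000129). Its other 3 probe sets differed by −1.44, −0.46 and −0.13, of which the last 2 did not pass (adjusted p over all probe sets 0.0908 and 0.212).

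Slc9a3r2, a scaffold protein of ion exchangers, differed by −1.18 ± 0.05 (adjusted p = 2.18e-05), and all 6 of its probe sets differed by −0.81 to −1.18. Ung, the uracil-DNA glycosylase of base excision repair, differed by −1.10 ± 0.10, the zinc importer Slc39a2 by −1.15 ± 0.09, and the zinc finger protein Zbed4 by −1.07 ± 0.09. With siKeap1-2 these last 3 lay at 0.06, −0.13 and 0.00 from siControl.

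The siControl mean lay between those of the siRNAs at 9 of the 12 genes. At the other 4 genes, those not among the 8, siKeap1-2 lay above siControl past the threshold while siKeap1-1 lay below it. Smagp, a small transmembrane glycoprotein, read 8.56 to 8.65 with siControl, 7.65 to 8.02 with siKeap1-1 and 8.94 to 9.19 with siKeap1-2. The 3 groups did not overlap (−1.25 ± 0.07, adjusted p = 5.26e-05; own changes −0.79 and 0.46). Pcgf3, a Polycomb group RING finger protein, changed by −0.68 and 0.40 (difference −1.08 ± 0.07), and its other 2 probe sets differed by −0.10 and −0.02. Zfp651, a zinc finger protein, changed by −0.70 and 0.46, and its other 2 probe sets differed by −1.04 and 0.05. Slc9a3r2 changed by −0.91 and 0.27. In the DMSO arrays, 4 of the 12 were lower in Nrf2-/- than in Nrf2+/+ cells (Lrrc3, Thra, Slc9a3r2 and Ung), 3 were higher (Prkar2a, Epas1 and Poldip2) and 5 did not pass, where 13.8% of all genes were lower and 11.2% higher. With RA839, 0 of the 12 passed the limma threshold and 0 had an unadjusted p under 0.05, where 0.572% of all genes were called higher and 0.0879% lower.

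The 12 leading genes higher with siKeap1-1 were of a more mixed kind: siControl lay between the siRNAs at 7 and below both at 5. They too were chosen among genes without overlap between the siRNAs, so that separation was set by the choice. Dmkn, the secreted epidermal protein dermokine, read 6.38 to 6.87 with siControl. It read 8.54, 9.16, 9.30 and 8.69 with siKeap1-1 and 6.92, 7.29, 7.58 and 6.81 with siKeap1-2. All siKeap1-1 arrays lay above all others, while the siKeap1-2 arrays ran from inside the siControl range upward. The difference was 1.77 ± 0.08 (3.41-fold, adjusted p = 2.45e-05), with 2.30 and 0.53 against siControl. One gene known only by a clone name differed by 1.74, was passed over by the rule for naming genes and is not among the 12.

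Gsta2, Fosl1 and Srpx2 rose with both siRNAs and further with siKeap1-1. Gsta2, an alpha-class glutathione S-transferase, read 5.17 to 6.18 with siControl, 9.68 to 10.11 with siKeap1-1 and 8.52 to 8.76 with siKeap1-2. Its mean was 4.20 and 2.94 above siControl, and the groups did not overlap (1.26 ± 0.15, adjusted p = 0.000990). Fosl1, the AP-1 subunit Fra-1, read 5.34 to 5.86 with siControl, 8.59 to 9.63 with siKeap1-1 and 7.58 to 8.01 with siKeap1-2. Its means lay 3.36 and 2.11 above siControl (1.25 ± 0.16, adjusted p = 0.00124). The siControl means of both genes lay below the array medians over all probe sets, where RMA shrinks differences. A second, dimmer Fosl1 probe set differed by 0.40 (adjusted p over all probe sets 0.0712). Srpx2, a secreted sushi-repeat protein, changed by 1.92 and 0.74 (difference 1.17 ± 0.11). Dmkn, Gsta2, Fosl1, Srpx2, Rph3a and Ripor2 were lower in Nrf2-/- than in Nrf2+/+ cells, with differences of −0.63 to −1.93, where 13.8% of all genes were lower. Of the 12 genes only Fosl1 was higher with RA839 (1.02, adjusted p = 0.0442).

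Adamts4, an aggrecan-cleaving protease, rose with siKeap1-1 (1.53, adjusted p = 0.000608) and lay at 0.24 with siKeap1-2 (adjusted p = 0.426). Its difference was 1.29 ± 0.19, and 0.21 on a second, dim probe set. At several genes the siRNAs lay on opposite sides of siControl. Slamf8, a macrophage receptor of the SLAM family, read 11.53 to 11.77 with siControl, 12.03 to 12.40 with siKeap1-1 and 10.49 to 10.70 with siKeap1-2. The 3 groups did not overlap (1.57 ± 0.08, 2.97-fold, adjusted p = 3.87e-05; own changes 0.54 and −1.02, both past the threshold). Ypel4 changed by 0.79 and −0.56 (difference 1.36 ± 0.09). Rph3a, the Rab effector rabphilin, changed by 0.86 and −0.42 (1.28 ± 0.11), and a second, dim Rph3a probe set differed by 0.12.

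Slco4a1, an organic anion transporter, read 10.69 to 10.98 with siControl, 10.93 to 11.65 with siKeap1-1 and 9.49 to 10.29 with siKeap1-2. It fell with siKeap1-2 (−0.96, adjusted p = 0.00660) and lay at 0.31 with siKeap1-1 (adjusted p = 0.268), with a difference of 1.27 ± 0.18 and 1.03 on its second probe set. Armcx2, an armadillo-repeat protein, gave −0.88 (adjusted p = 0.00852) and 0.46 (adjusted p = 0.101). Its 3 probe sets differed by 1.05 to 1.34. Ripor2, an inhibitor of the small GTPase RhoA, and Utp14b, a factor of ribosome assembly, were dim, and neither passed against siControl with either siRNA. Ripor2 read 6.20, 6.22, 6.21 and 5.22 with siKeap1-1 and 4.42, 4.59, 4.93 and 4.36 with siKeap1-2, and the array numbered 4 was the lowest of each group (1.38 ± 0.24, adjusted p = 0.00564). The other 3 Ripor2 probe sets differed by −0.05 to 0.49.

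**Figure D3:**
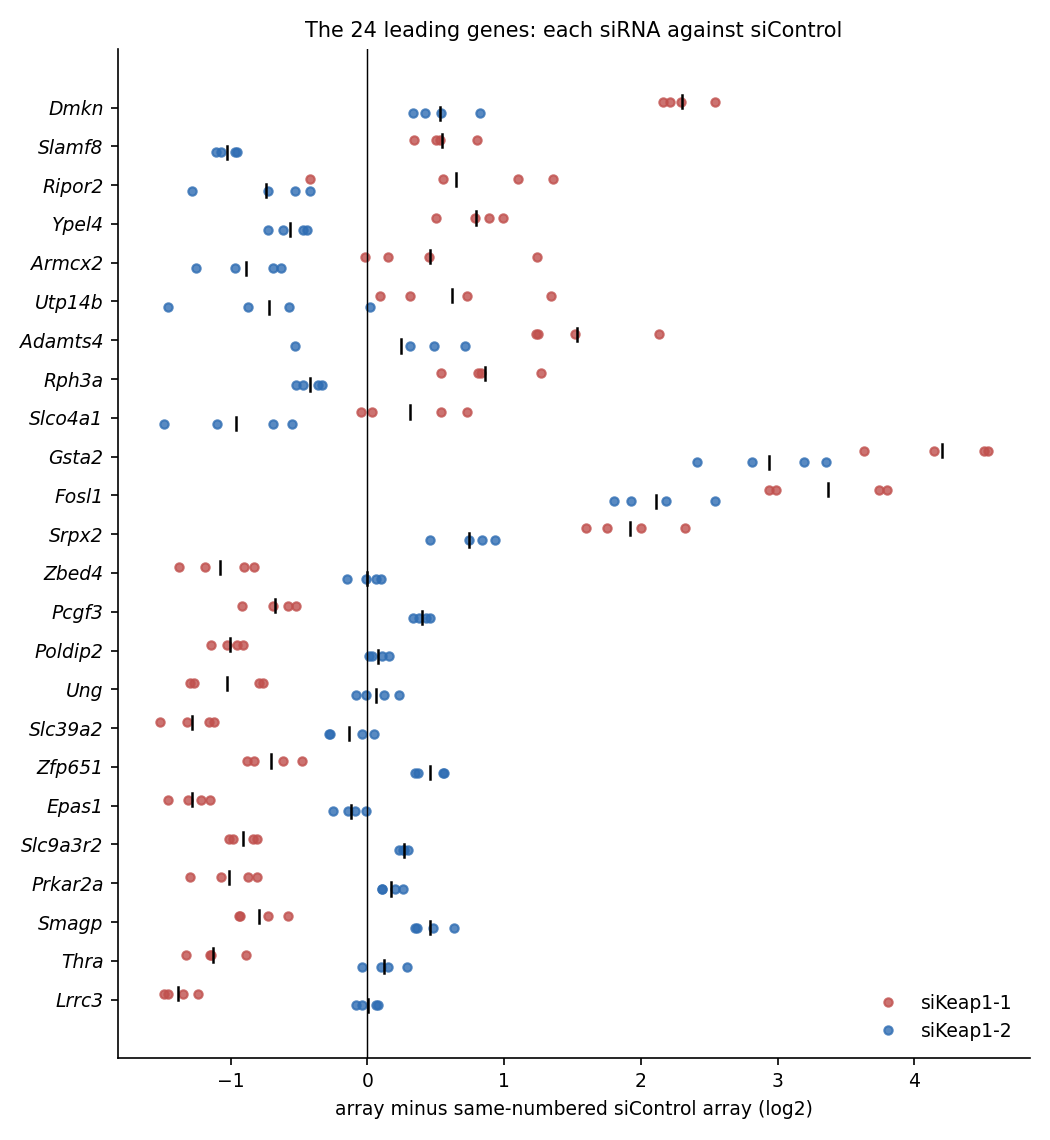
Each siKeap1-1 (red) and siKeap1-2 (blue) array minus the same-numbered siControl array, on the log2 scale, for the 24 leading genes; 4 points per siRNA, black ticks are means and the vertical line is no difference. In the lower block siKeap1-1 lies left of 0 and siKeap1-2 near or right of it (Lrrc3 −1.38 and 0.01), while Gsta2 lies far right with both (4.20 and 2.94).

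A gene that separates the siRNAs can do so because either one moved. Each of the 2665 genes was therefore described by the siRNA whose mean lay farther from siControl and by its side, with no test. siKeap1-1 was farther and below at 799 genes (30.0%), with median changes of −0.34 for it and 0.03 for siKeap1-2. It was farther and above at 746 (0.36 and 0.03). siKeap1-2 was farther and below at 644 (24.2%; −0.37, against 0.00 for siKeap1-1) and farther and above at 476 (17.9%; 0.28 and −0.02). The other siRNA is nearer to siControl by this choice. At the genes of at least 2-fold (16, 22, 10 and 3) its medians were 0.08, 0.12, 0.46 and −0.03. Among the 348 genes at 1.5-fold or more, the counts in the same order were 110, 112, 90 and 36. The siControl mean lay between those of the siRNAs at 662 of the 1390 higher genes and at 738 of the 1275 lower genes.

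The leading lower genes were all ones that siKeap1-1 moved farther, so genes that siKeap1-2 moved farther were also looked up. The next 12 were chosen after their values were seen, among genes at which the 4 arrays of the siRNAs did not overlap. Their lack of overlap between the siRNAs was thus set by the choice. Of the 6 largest differences among genes below siControl with siKeap1-2, beside those already described, Timm17a, a subunit of the mitochondrial protein import channel, read 11.41 to 11.52 with siControl, 11.64 to 11.80 with siKeap1-1 and 10.69 to 10.80 with siKeap1-2. The 3 groups did not overlap (0.99 ± 0.04, adjusted p = 2.26e-05; own changes 0.23 and −0.76). Rab15, a GTPase of endosome recycling, likewise read 10.11 to 10.23, 10.61 to 10.75 and 9.58 to 9.66 (1.05 ± 0.05). The other 4 were the protease Prss46 (own changes 0.17 and −0.79), Prkar1b, another protein kinase A regulatory subunit (0.22 and −0.72), Nlrc3, a damper of innate immune signalling (0.45 and −0.57; difference 1.03, and 0.25 on a second probe set), and Spry3, of the Sprouty family of growth factor inhibitors (0.38 and −0.53).

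Of the 6 above siControl with siKeap1-2, Adm, the vasodilator peptide adrenomedullin, rose with both siRNAs. It read 7.39 to 7.61 with siControl, 9.75 to 10.41 with siKeap1-1 and 10.72 to 11.29 with siKeap1-2. The groups did not overlap (−0.89 ± 0.11, adjusted p = 0.00137), but the call was lost (adjusted p = 0.173) when probe sets that can match several transcripts were left out. Mgam, the maltase-glucoamylase, read 10.82 to 11.25 with siKeap1-2 against 9.58 to 10.36 with siKeap1-1 and 9.66 to 10.40 with siControl (−1.06 ± 0.09, adjusted p = 0.000260). The remaining 4 were Rph3al (own changes −0.07 and 0.93; difference −0.99, and −0.10 on a second probe set), Gfpt2, an enzyme of hexosamine synthesis (0.25 and 1.21), Parm1 (0.19 and 1.11) and the growth factor receptor Pdgfra (0.98 and 1.88; difference −0.90, and −0.24 and −0.31 on its other probe sets). The Gfpt2 call was lost when some single arrays were left out (6 of 12) and without the arrays numbered 4 (adjusted p = 0.144).

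The Nrf2+/+ and Nrf2-/- DMSO arrays come from cells that saw neither siRNA. In them 11.2% of all genes were higher and 13.8% lower in Nrf2-/- cells. Of the genes that siKeap1-1 moved farther and up, 28.6% were lower and 5.76% higher in Nrf2-/- cells. Of those that siKeap1-2 moved farther and up, 25.0% were lower and 6.51% higher. The genes siKeap1-1 moved farther and down ran the other way, with 22.0% higher and 8.89% lower. The genes siKeap1-2 moved farther and down were higher and lower in nearly equal shares, 14.8% and 13.4%. Without the arrays numbered 4 the shares in the same order were 28.6% and 5.72%, 30.8% and 2.2%, 21.3% and 11.1%, and 14.7% and 17.2%, so the last group then held more lower than higher genes. With RA839, 20 of the 746 (2.68%) and 15 of the 476 genes (3.15%) above siControl were higher, against 0.572% of all genes. Below it, 2 of the 799 (0.25%) and 0 of the 644 were higher. Lower with RA839 were 2 of the 799 (0.25%) and 3 of the 644 (0.466%), against 0.0879% of all genes. None of the 746 or the 476 were lower. Counts at an unadjusted limma p under 0.05 were also taken, with no share over all genes. Whether they lie above or below that share therefore cannot be told. They were 75 higher and 27 lower of the 746, and 69 and 15 of the 476. Below siControl they were 30 and 43 of the 799, and 15 and 66 of the 644. The RA839 and Nrf2-/- comparisons share the Nrf2+/+ DMSO arrays.

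**Figure D4:**
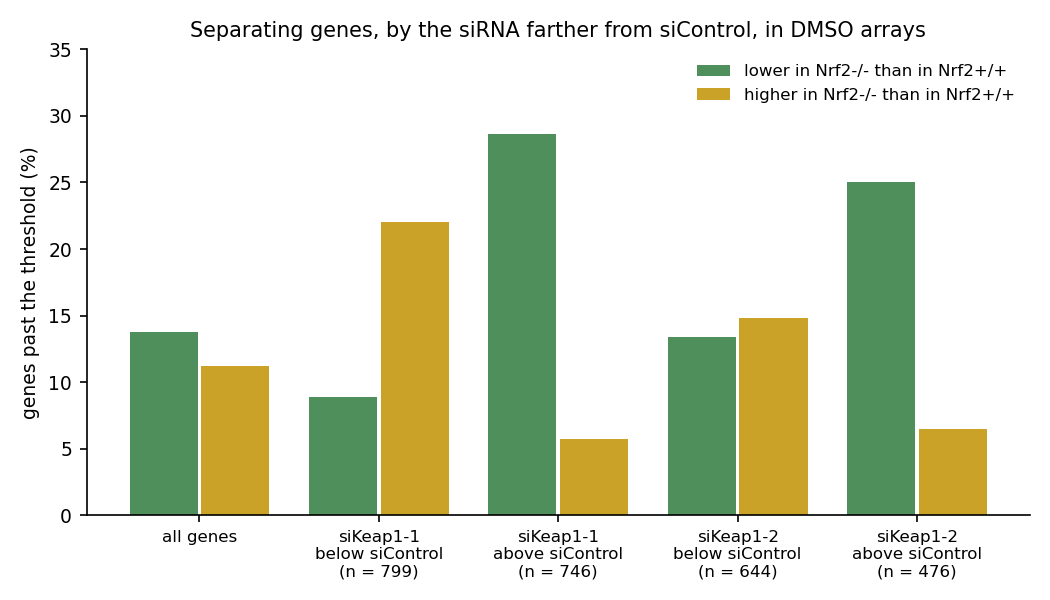
Share of genes (y axis, %) past the threshold between Nrf2-/- and Nrf2+/+ DMSO arrays, for all 18193 genes and for the 4 groups of genes that separate the siRNAs, named by the siRNA farther from siControl and its side. Lower genes are 28.6% and 25.0% of the groups above siControl and 8.89% and 13.4% of those below it.

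Gene lists were read against the 14.6% of all genes past the threshold (7.45% without the replicate block and 7.05% without the arrays numbered 4). Counts between the siRNAs at an unadjusted limma p under 0.05 have a larger background. At that limit 5113 of all 18193 genes differed in either direction. With all arrays and the block, 2 of 24 lists had a smaller share (core Nrf2 targets and RNA interference). It was 5 of 24 without the block (core Nrf2 targets, glutathione synthesis, interferon-stimulated genes, chemokines and macrophage receptors), and 5 without the arrays numbered 4 (the same, with the Keap1 complex in place of chemokines). Genes of cholesterol and fatty acid synthesis had the highest share with all arrays and the block, but not in the other settings, where it was 36.4% (thioredoxin genes) and 40.0% (export pumps). Of 23 measured, 12 were higher with siKeap1-1 and 0 lower (52.2%; 13 and 1 at an unadjusted limma p under 0.05), with a median difference of 0.22 against 0.0 for all genes. Against siControl the list's medians were −0.03 with siKeap1-1 and −0.14 with siKeap1-2. With siKeap1-1, 5 members were higher and 3 lower, and with siKeap1-2, 1 was higher and 10 were lower. Of all genes, 13.6% were higher and 10.5% lower with siKeap1-1, and 11.4% and 9.08% with siKeap1-2. Sqle, the squalene epoxidase, read 9.86 to 10.18 with siKeap1-1, 9.51 to 9.78 with siKeap1-2 and 9.96 to 10.21 with siControl, so siKeap1-2 lay apart (0.38 ± 0.04, adjusted p = 0.000583). Msmo1, a sterol demethylating oxidase, fell with both and further with siKeap1-2 (−0.30 and −0.74), and Sc5d, which acts later in the pathway, rose with siKeap1-1 (0.47) and lay at 0.07 with siKeap1-2. Without the arrays numbered 4 the list's count was 7 of 23 (30.4%), and without the replicate block it was 3 of 23 (13.0%). The calls of Msmo1 (adjusted p = 0.0676) and Sc5d (adjusted p = 0.168) were then lost. Msmo1 also lost its call without probe sets that can match several transcripts (adjusted p = 0.346), and Sc5d with the mean over its probe sets (adjusted p = 0.0718).

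Thioredoxin, sulfiredoxin and peroxiredoxin genes gave 0 higher and 4 lower of 11 (1 and 4 at an unadjusted limma p under 0.05). The counts past the threshold were also 0 and 4 without the block and without the arrays numbered 4. Txnip, the inhibitor that binds thioredoxin, read 12.92 to 13.10 with siControl, 12.07 to 12.37 with siKeap1-1 and 12.66 to 13.01 with siKeap1-2 (−0.65 ± 0.05, adjusted p = 0.000215). Its second probe set differed by −0.89. Its own changes were −0.76 with siKeap1-1 and −0.11 with siKeap1-2, of which the second did not pass (adjusted p = 0.190). Srxn1 is described above, and Txnrd3, a reductase of thioredoxin and glutathione, differed by −0.48 ± 0.08.

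Glutathione S-transferases gave 4 higher and 3 lower of 21 (2 and 1 without the block), with a median of 0.01. Beside Gsta2, Gsta4, which acts on lipid aldehydes, rose with both and further with siKeap1-2 (3.09 and 3.52; difference −0.43 ± 0.05, lost without the block with adjusted p = 0.0505). So Gsta2 and Gsta4 differed between the siRNAs in opposite directions. Gstk1, the peroxisomal and mitochondrial class kappa enzyme, read 9.38 to 9.76 with siKeap1-1 against 10.00 to 10.22 with siKeap1-2 (−0.53 ± 0.05, adjusted p = 0.000562). Glutathione synthesis and cystine uptake gave 2 higher and 1 lower of 15 (0 and 1 without the block). The lower one was Chac1, which degrades glutathione, at −0.45 ± 0.05. NADPH supply gave 1 and 1 of 12, and haem and iron handling 1 and 2 of 19, among them the porphyrin transporter Abcb6 (own changes 0.79 and 1.28). Export pumps of the ABC family gave 3 higher and 2 lower of 10 (1 and 1 without the block). Abcb1b, a multidrug pump, differed by 0.89 ± 0.11 (own changes 0.27 and −0.62). Its second, dim probe set differed by −0.09, so the mean over both was 0.40.

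The Keap1 complex and the partners of Nrf2 gave 2 higher and 2 lower of 24 (0 and 2 without the block). Cand1, which strips cullin ligases of their adaptors, read 10.42 to 10.73 with siKeap1-1 against 11.09 to 11.23 with siKeap1-2 and 11.17 to 11.28 with siControl (−0.64 ± 0.06, adjusted p = 0.000400). Its other 3 probe sets differed by −0.22 to 0.16, and the mean over all was −0.21. Nfe2l1, the Nrf2 relative that controls proteasome genes, differed by −0.19 ± 0.04, a call lost without the arrays numbered 4 (adjusted p = 0.155). Kelch-domain relatives of Keap1 gave 2 higher and 5 lower of 34. Klhl18 and Klhl11 fell with siKeap1-1 (−0.51 and −0.34) and lay at −0.09 and −0.04 with siKeap1-2. The mean over both Klhl18 probe sets differed by −0.21, against −0.41 on the one used. Klhl6 fell with siKeap1-2 (−0.55) and lay at 0.15 with siKeap1-1 (difference 0.70 ± 0.05). The RNA interference machinery, through which both siRNAs act, gave 2 higher and 0 lower of 18 (2 and 1 at an unadjusted limma p under 0.05). They were Tnrc6a, a partner of Argonaute (0.28 ± 0.04), and Snd1 (0.33 ± 0.05), whose call was lost with the mean over its probe sets (adjusted p = 0.0650).

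**Figure D5:**
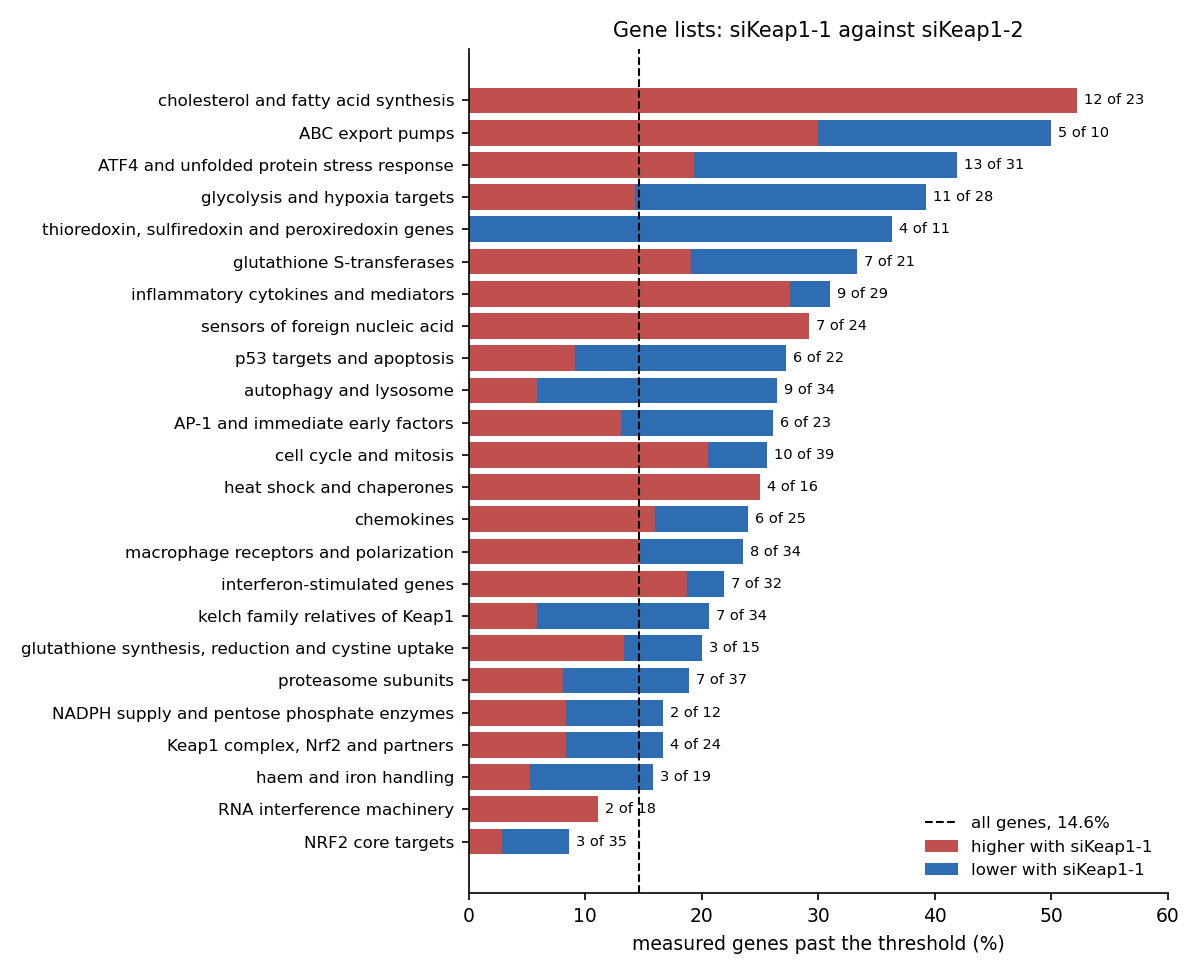
Share of the measured genes of each of 24 lists past the threshold between the siRNAs (x axis, %), split into higher (red) and lower (blue) with siKeap1-1; the dashed line is the 14.6% of all genes. Cholesterol and fatty acid synthesis is at the top (12 of 23, all higher) and the core Nrf2 targets at the bottom (3 of 35).

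With all arrays and the block, the stress lists other than heat shock held changes in both directions. The ATF4 and unfolded protein list gave 6 higher and 7 lower of 31 (4 of 31 without the block). The chaperone cofactor Sdf2l1 was 0.48 ± 0.05 higher, and Vldlr, a lipoprotein receptor, was lower (−1.07 ± 0.12, adjusted p = 0.000788). Vldlr arrays overlapped through the arrays numbered 4, which were low in every group (9.16, 9.04 and 10.21), and its call was lost without the block (adjusted p = 0.116). All 6 Vldlr probe sets were lower, by −0.52 to −1.07. Heat shock genes gave 4 higher and 0 lower of 16, among them Hsph1 (0.49 ± 0.04). The counts were 2 and 0 without the block, and 8 and 0 at an unadjusted limma p under 0.05. The unadjusted limit was passed by 5113 of all 18193 genes in either direction. Glycolysis and hypoxia genes gave 4 higher and 7 lower of 28 (2 and 5 without the block). Pfkl, the liver-type phosphofructokinase, read 9.70 to 9.92 with siControl, 9.71 to 10.18 with siKeap1-1 and 10.52 to 10.75 with siKeap1-2, so siKeap1-2 lay apart (−0.74 ± 0.07, adjusted p = 0.000372). The call was lost (adjusted p = 0.363) when probe sets that can match several transcripts were left out. Slc2a1, the main glucose importer, differed by −0.37 ± 0.04. Genes of p53 and apoptosis gave 2 and 4 of 22, and immediate early factors 3 and 3 of 23. Without the block these counts were 1 and 1, and 1 and 2. Autophagy and lysosome genes gave 2 and 7 of 34 (1 and 5 without the block), and proteasome subunits 3 and 4 of 37 (2 and 2).

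Immune lists held more members that were higher than lower with siKeap1-1 in the fit with all arrays and the block. Inflammatory mediators gave 8 higher and 1 lower of 29, with a median of 0.08 (4 and 0 without the block, 4 and 1 without the arrays numbered 4). Csf1, the macrophage growth factor, read 10.97 to 11.37 with siKeap1-1, 10.34 to 10.72 with siKeap1-2 and 10.63 to 11.04 with siControl. The siRNA groups did not overlap and lay on opposite sides of the siControl mean (0.68 ± 0.04, adjusted p = 6.7e-05; own changes 0.32 and −0.36). All 4 Csf1 probe sets were higher, by 0.32 to 0.68. Tnf differed by 0.56 ± 0.07 and Il18 by 0.32 ± 0.05. Sensors of foreign nucleic acid gave 7 higher and 0 lower of 24 (10 and 1 at an unadjusted limma p under 0.05). It was 3 higher without the block and 5 higher without the arrays numbered 4. Sting1, the adaptor of cytosolic DNA sensing, rose with siKeap1-1 (10.83 to 11.31, from 10.27 to 10.52) and read 10.20 to 10.53 with siKeap1-2 (0.63 ± 0.06, adjusted p = 0.000402). Cgas, the enzyme upstream of it, differed by 0.30 ± 0.04.

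Interferon-stimulated genes gave 6 higher and 1 lower of 32. Against siControl, 16 of them were lower with siKeap1-1 and 24 with siKeap1-2, where 10.5% and 9.08% of all genes were lower. Without the block only 1 of the 32 passed between the siRNAs, and without the arrays numbered 4 likewise 1, in the other direction. Chemokines gave 4 and 2 of 25 (1 and 0 without the block, 2 and 1 without the arrays numbered 4). Ccl2, which recruits monocytes, read 9.80 to 10.55 with siKeap1-1 and 8.90 to 9.84 with siKeap1-2, with an overlap of single arrays, against 11.26 to 11.95 with siControl. The call (0.72 ± 0.09, adjusted p = 0.00145) was lost without the block (adjusted p = 0.0763). Macrophage receptors gave 5 and 3 of 34, among them the pattern receptor Tlr2 (0.49 ± 0.06; own changes −0.36 and −0.85). Without the block the counts were 1 and 1, and without the arrays numbered 4 they were 2 and 0 (5.88% each). Cell cycle genes gave 8 higher and 2 lower of 39. Ccnd1, the G1 cyclin, fell with both and further with siKeap1-2 (−0.27 and −0.87), and Cdc6, which licenses replication origins, fell with siKeap1-2 alone past the threshold (−0.54; 0.16 with siKeap1-1). Cenpa, the centromeric histone, went the other way (−0.61 ± 0.05; own changes −0.30 and 0.31), a call lost without probe sets that can match several transcripts (adjusted p = 0.287).

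Markers of other cell types were read in the same way. Of 10 neutrophil, 6 erythroid and 8 mast cell or basophil markers, 0 passed in limma. At an unadjusted p under 0.05, 3 neutrophil markers were higher and 1 lower, 0 erythroid markers differed and 1 mast cell or basophil marker was lower. The same limit was passed by 5113 of all 18193 genes in either direction. Dendritic cell markers gave 1 lower of 8, B cell markers 1 higher and 2 lower of 7, and fibroblast markers 2 lower of 9 (Pdgfra and Fn1). Osteoclast markers gave 1 higher and 3 lower of 9, including Ctsk, a cysteine protease (own changes 0.00 and 0.43). Without the block 0 dendritic cell, 0 B cell, 1 fibroblast and 2 osteoclast markers passed in limma, and without the arrays numbered 4 these counts were 0, 1, 1 and 1. The T cell gene Cd3e was higher with siKeap1-1 (0.72 ± 0.19, adjusted p = 0.0366), at 6.53 to 6.95 against 5.43 to 6.35, while Cd3d and Cd3g did not pass; its call was lost without the block (adjusted p = 0.0792) and when some single arrays were left out (8 of 12). Macrophage markers gave 3 higher and 0 lower of 11 (Fcgr1, Cd14 and Itgam), with a median of 0.11, and all of these calls were lost without the block (adjusted p = 0.0968, 0.125 and 0.611). The part of cell makeup in the gene differences was not tested.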

How the data were processed

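The deposited values are RMA log2 intensities, per the submitters' processing notes, which name no version. RMA shrinks differences of dim probe sets. Of 45101 probe sets, 34945 named 1 gene through the platform annotation, 932 several, 9160 none, and 64 were controls. Each of 18193 genes took its probe set with the highest mean over 28 arrays. Probe sets were not compared in level with each other.

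The 12 siRNA arrays were fitted with limma 3.58.1 (R 4.3.3), 1 coefficient per group plus the replicate number, since the labels number the arrays 1 to 4. Deviations of same-numbered pairs correlated at 0.12 to 0.66, against −0.42 to 0.26 for other pairs, so the ranges overlapped. The arrays numbered 4 gave 0.64 to 0.66, while those numbered 2 gave 0.12 to 0.24, within the range of other pairs. What a number marks is not labelled. If arrays are not separate cultures, p-values measure technical spread. The 16 compound arrays were fitted apart, without a block. The procedure was tested on simulated data with independent noise on each array. These data held no shared replicate effect, so they could not test the replicate block. Array number, 4 per group, limits the precision.

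Named genes were Keap1, Nfe2l2 and 7 targets, the 12 highest and 12 lowest differences past the threshold without overlap and with 1 sign in all pairs, up to 3 members per list, and those stated as chosen later. The list member Ero1a was matched through an older symbol. Members and lists were chosen with earlier results of these data known. Alternatives were other filters, probe set rules, normalizations, weights, priors, blocks and arrays left out. Two-sided p-values were Benjamini-Hochberg adjusted.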

Additional observations from a re-analysis of the deposited data

Results flagged for a closer look

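Among 354 groups of 4 siRNA arrays, one for each named gene and siRNA group tested, 22 held an array set apart from the other 3 (gap over range above Dixon's 95% critical value), where chance gives about 1 in 20 groups. Most lay in the arrays numbered 4. In siKeap1-1 array 4, Nqo1 read 13.33 (others 12.80 to 12.87), Srxn1 13.34 (13.47 to 13.49), Hmox1 13.71 (13.40 to 13.42), Ripor2 5.22 (6.20 to 6.22) and Itgam 10.49 (10.94 to 10.96). In siKeap1-2 array 4, Srxn1 read 13.85 (13.98 to 14.01), Ypel4 7.14 (7.76 to 7.83), Armcx2 7.50 (8.04 to 8.13), Prss46 6.65 (7.25 to 7.36), Vldlr 10.21 (11.14 to 11.31), Itgam 10.32 (10.73 to 10.81) and Dcstamp 11.32 (10.74 to 10.79). In siControl array 4, Gclc read 10.48 (9.97 to 10.03), Rph3a 7.36 (7.81 to 7.88) and Psma4 11.46 (11.59 to 11.60).

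In siControl array 1, Armcx2 read 9.01 (8.73 to 8.76), Sqle 10.21 (9.96 to 9.99) and Tlr2 9.25 (9.40 to 9.43). Tnf read 8.11 in siKeap1-1 array 1 (8.39 to 8.41), and Ccl7 read 5.07 in siKeap1-2 array 1 (5.90 to 6.06). Mcm3 read 9.33 in siKeap1-1 array 3 (8.82 to 8.90), and Egr1 read 10.17 in siKeap1-2 array 3 (10.01 to 10.02).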

How the results depend on the processing

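Between the siRNAs 2665 genes passed. The count was 1237 at an adjusted p under 0.01, 1356 with no replicate block, 1514 from the 8 Keap1 siRNA arrays alone with the block and 845 from them without it, 1283 without the arrays numbered 4 (chosen after seeing the data), and 1730 to 2754 with single arrays left out. Against siControl the counts were 4371 for siKeap1-1 (2486 at 0.01, 2741 with no replicate block, 2691 without the arrays numbered 4) and 3719 for siKeap1-2 (1999, 2038 and 1994). For RA839, 120 genes passed (53 at 0.01, 208 with array weights, 72 to 136 with single arrays left out). For Nrf2-/- against Nrf2+/+, 4561 passed (2459 at 0.01, and 2759 among the brighter genes, 1521 higher and 1238 lower). Of 118 named genes, 62 kept direction and call in every setting run, 51 lost the call in at least 1 and 4 gained it in at least 1 (Keap1, Nfe2l2, Hmox1 and Slc7a11). With no replicate block 32 named calls were lost. Of the 118 genes, 5 reversed in a setting: Ighm (0.01) and Wipi1 (0.22) without probe sets that can match several transcripts, Nqo1 (−0.01) without the arrays numbered 4, and Slc7a11 (0.29) and Xaf1 (0.03) with the mean over probe sets. The cause was not tested. Dim probe sets limit what can be seen, since RMA compresses them.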
